A study of Mus musculus with 52 samples.

Results

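Mouse matrix metalloproteases (Mmp), disintegrin-type proteases with thrombospondin repeats (Adamts), their protease-free relatives (Adamtsl), tissue inhibitors of metalloproteases (Timp) and serpins were followed through 13 clones of a kidney collecting duct line. They were chosen by symbol, as every gene whose name begins with one of these stems and a number, or with Adamtsl. This gave 114 of 24421 genes: 23 Mmp, 19 Adamts, 5 Adamtsl, 4 Timp and 63 serpin genes. The cells were Cilia-APEX-IMCD3, an immortalised mouse inner medullary collecting duct line, edited with a CRISPR cytosine base editor and grown up from single sorted cells. Mutant clones carried homozygous missense changes in Wdr34 or Wdr60, the intermediate chains of the dynein-2 motor that moves cargo back from the tip of the cilium. Control clones had received the editor and a guide vector without a target sequence by the study's methods, and the labels give CRISPR base editing as the treatment of all libraries. The titles set AB apart from Co1, Co2 and Co3 by a different prefix that the labels do not explain. Non-ciliated cells comprised 1 Wdr34 clone, 1 Wdr60 clone and the controls AB, Co1, Co2 and Co3. Ciliated cells comprised 2 Wdr34 clones, labelled 1 and 3, 1 Wdr60 clone and the controls D8, H12, A4 and G7. Each clone had 4 technical replicate libraries, 52 in all. The sample labels give no allele for either ciliated Wdr34 clone. By the study's methods, cells carrying 1 of its Wdr34 alleles also have an unintended heterozygous missense change in the same gene, and that allele is not in the non-ciliated set. Ciliated cells were starved of serum according to the methods, whereas the labels give medium with 10% serum for all libraries. Serum, time of sequencing and state cannot be told apart here, and the labels do not say whether clones of the 2 states are the same.

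Matrix proteases are secreted or membrane-bound enzymes that cut collagens, proteoglycans and other proteins around the cell, most of them made as inactive precursors. Timp proteins block the active site of the metalloproteases, and inhibitory serpins trap serine proteases by a change of shape after being cut, although some serpins inhibit nothing and act as chaperones or signals. In the kidney tubule this balance shapes the basement membrane and the plasmin system, and it shifts in fibrosis and cyst growth.

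Library totals were 14816218 to 28084979 counts (median 17414011.5), and levels are CPM, counts scaled to a common library total with trimmed mean of M-values (TMM) factors over the 52 libraries. The spread between libraries of a clone is that of technical replicates, as the study's methods name them. Tests on libraries count these as independent samples, with the spread between clones of a group in their residual, and are set beside fits on 1 summed library per clone. In all 78 within-clone pairs the libraries differed (0 identical, chi-square per degree of freedom 1.99 to 104, median 5.47). The largest values came from a few libraries. Against the rest of its clone, library 1 gave 76.5 to 86.2 in AB, 51.4 to 56.3 in non-ciliated Wdr60 and 27.6 to 58.6 in A4. Library 4 of G7 gave 43.9 to 68.9. In the ciliated Wdr60 clone, libraries 1 and 2 against 3 and 4 gave 45.4 to 104. Wdr34 was read at 21.6 to 49.7 CPM and Wdr60 at 20.2 to 30.6 CPM in all clones, which cannot check a missense edit. Of the clones, 3 stood apart in cell type markers. The summed level of 11 collecting duct and tubule genes was 834 CPM in Co2, 969 CPM in G7 and 1329 CPM in Wdr34 clone 3, against 2545 to 4388 CPM in the other 10. Epcam, an epithelial adhesion molecule, was at 2.90 CPM in Co2 and 13.7 CPM in G7, against 180 to 836 CPM in the other 11. The kidney transcription factors Pax2 and Pax8 of the same list went the other way, Pax2 being at 280 CPM in Co2 and 315 in G7 against 79.6 to 180 in the other 11, and Pax8 at 303 and 427 against 149 to 295. Gata3, also of this list, did not: it was at 0.210 CPM in Co2 and 0.189 in G7, low in the range of the rest (0.132 in A4 to 2.86 in Wdr34 clone 3). Hoxb7 was also highest in G7 (84.95 CPM), with Co2 at 55.9 inside the range of the rest. Aqp2, the water channel that defines principal cells, was below 1 CPM in every clone. Vim, a mesenchymal intermediate filament, was at 665 CPM in Co2, 151 in G7 and 196 in Wdr34 clone 3, against 3.48 to 30.6 CPM in the other ciliated and 49.96 to 412 CPM in the other non-ciliated clones. It made up most of the fibroblast list, whose full sum of 228 CPM in Wdr34 clone 3 was below those of Co1, Co2 and Co3 (420, 672 and 258 CPM). In Wdr34 clone 3 the same list without Vim summed to 31.7 CPM, against 1.40 to 7.29 CPM in the other 12 clones, carried by the proteoglycan Dcn at 29.1 CPM, while Col1a2, Col3a1, Pdgfrb, Thy1 and Lum were below 1 CPM throughout. The 5 endothelial genes were below 1 CPM everywhere, as were Ptprc, Adgre1 and Lyz2 of the leukocyte list, whose sum of 18.4 to 54.2 CPM in non-ciliated and 171 to 303 CPM in ciliated clones was carried by Csf1r. The part of these marker differences in the results below was not tested, and results that rest on Co2, G7 or Wdr34 clone 3 are given with and without them.

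Of the 114 genes, 21 had a count of 0 in all 52 libraries, 34 reached 1 CPM in at least 1 clone, 15 reached 10 CPM, and 13 were at 1 CPM or more in every clone. The silent genes included the collagenases Mmp1a and Mmp1b, the matrilysin Mmp7 and the squamous-type serpins Serpinb3a to Serpinb3d. Several proteases usually prominent in matrix were close to silent: Mmp14, the membrane-type activator of Mmp2, had 12 counts over 52 libraries, the gelatinase Mmp9 had 33, and the stromelysin Mmp3 had 6. Members at 1 CPM or more numbered from 18 in A4 to 32 in Wdr34 clone 3.

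**Figure D1:**
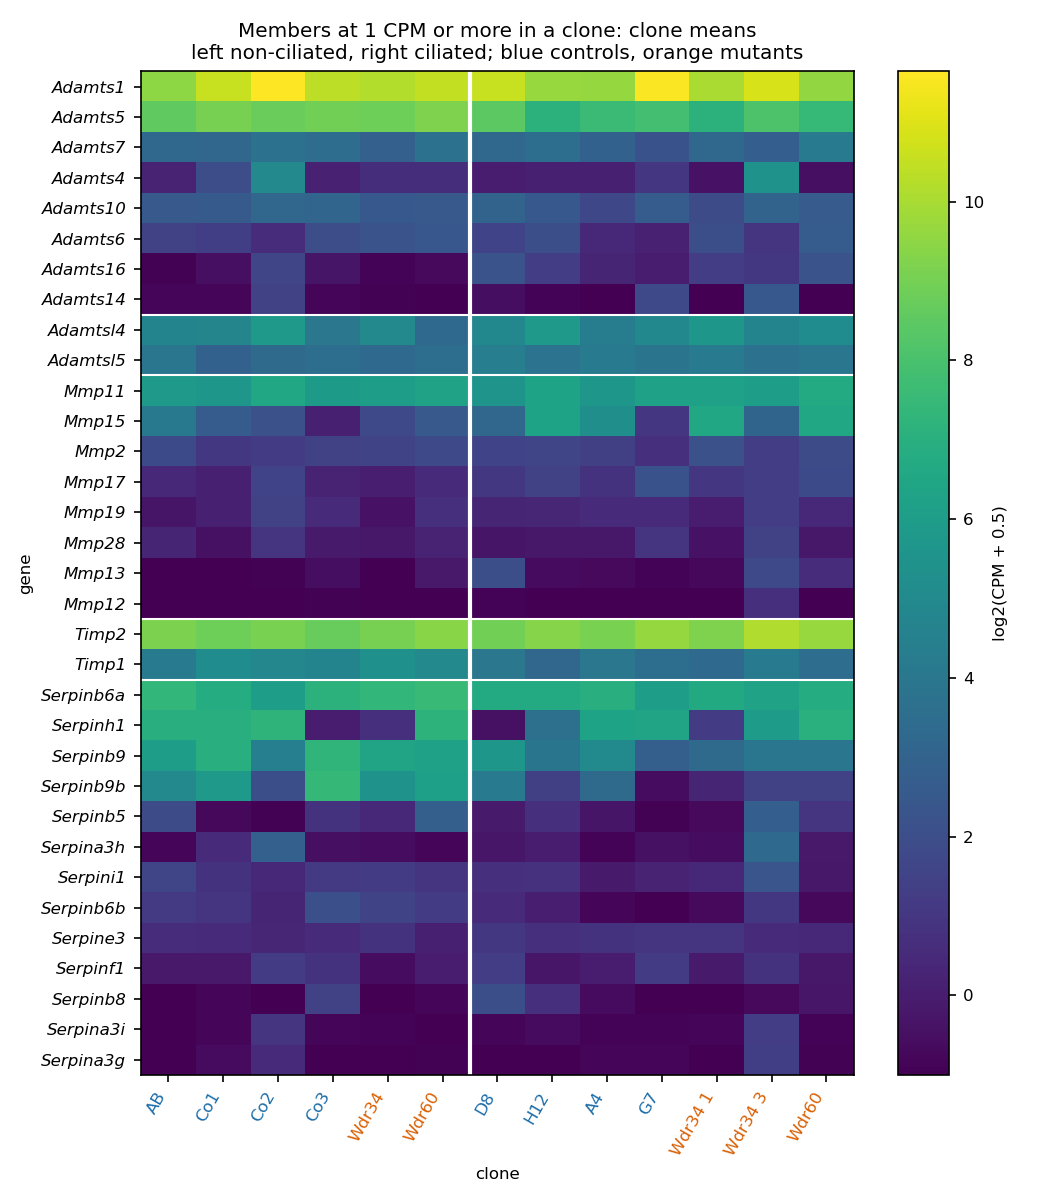
Clone means of 33 of the 34 members that reached 1 CPM in a clone, as log2(CPM + 0.5), with genes by family on the vertical axis and the 13 clones on the horizontal axis (non-ciliated left, ciliated right, controls blue, mutants orange). Adamts1 and Timp2 are bright in every column, while Serpinh1, Mmp15 and Adamts4 switch between columns of both genotypes.

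Per kilobase of merged exon, and averaged over the 13 clones, the level among the members reported here was highest for Adamts1 (303 CPM per kb), followed by Timp2 (171), Serpinb6a (58.3), Adamts5 (31.3), Mmp11 (30.4), Serpinh1 (28.7), Timp1 (23.3), Serpinb9 (14.6), Serpinb9b (9.76) and Adamtsl4 (7.85). Adjacent genes in this order from Adamts5 to Serpinh1 lay close together against the range of their clone means. Adamts1 took 30.5% of all member counts in AB and 69.0% in G7, the lowest and highest shares. The summed member level ran from 2092 CPM in H12 to 4926 CPM in Co2. By family, sums ran from 61.0 (Co1) to 208 CPM (ciliated Wdr60) for Mmp, from 976 (ciliated Wdr60) to 3683 CPM (Co2) for Adamts, from 443 (Co3) to 1155 CPM (Wdr34 clone 3) for Timp and from 166 (G7) to 721 CPM (Co1) for serpins.

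For the 34 members at 1 CPM or more, variance in log2 level over the 52 libraries was split between and within clones. A median of 95.5% lay between clones (range 46.7 to 99.3%), and for 22 members it was at least 90%. This share was taken over all clones, so it includes differences between states and between mutants and controls. Control clones of the same state also differed widely for many members. Among the 4 ciliated controls the highest clone was at least 2-fold above the lowest for 20 of 34 members and at least 4-fold for 9. Among the 4 non-ciliated controls these counts were 24 and 11, with 0.5 CPM added to each level.

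Adamts1, a secreted protease of versican and aggrecan, was the most abundant member on average over the clones, although Timp2 was above it in the ciliated Wdr60 clone. Adamts1 was at 1176 ± 21.3 CPM (SD, n = 4 libraries) in the non-ciliated Wdr34 clone and 1423 ± 115 in the Wdr60 clone, and at 709, 1507, 3195 and 1345 CPM in AB, Co1, Co2 and Co3. In ciliated cells it was at 1068 CPM in Wdr34 clone 1, 1875 in clone 3 and 763 in the Wdr60 clone, and at 1545, 830, 799 and 3004 CPM in D8, H12, A4 and G7. The non-ciliated mutants lay inside the range of their controls, as did both ciliated Wdr34 clones, while the ciliated Wdr60 clone was below its lowest control (A4), and the highest levels were in Co2 and G7. The log2 fold change of ciliated mutants against controls was -0.33 (SE 0.27, adjusted p = 0.55, edgeR). The 250 bases before its start (RefSeq, GRCm38.p6, chr16:85803114-85803363, minus strand, 65.6% G or C) are shown because this gene carries the largest share of the family's counts, with the letters TATAAA in capitals, 32 bases before the start:
Adamts1: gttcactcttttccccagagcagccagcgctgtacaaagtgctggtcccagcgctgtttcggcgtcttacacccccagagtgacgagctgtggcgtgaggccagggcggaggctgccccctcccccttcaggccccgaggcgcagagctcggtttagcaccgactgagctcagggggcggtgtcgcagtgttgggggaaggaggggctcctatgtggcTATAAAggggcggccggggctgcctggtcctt
TATAAA, on either strand, was in 12.4% of 32851 mouse promoter windows of this length, whose median G or C content was 52.4%.

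Adamts5, the main aggrecan-cutting enzyme of cartilage, lies 55 kb from Adamts1 on chromosome 16, and over the 13 clones their log2 levels had r = 0.36. It was at 456 and 584 CPM in the non-ciliated Wdr34 and Wdr60 clones and at 373, 537, 430 and 502 CPM in AB, Co1, Co2 and Co3. Ciliated cells were at 137, 278 and 179 CPM in Wdr34 clones 1 and 3 and the Wdr60 clone, and at 345, 138, 197 and 230 CPM in D8, H12, A4 and G7. Every ciliated clone was below every non-ciliated clone, and mutants and controls overlapped in each state.

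Adamts4, a close relative that cuts the same cartilage proteoglycan, was high in 2 clones only. It was at 30.8 ± 0.70 CPM in the control Co2 and at 44.1 ± 16.9 CPM in the ciliated Wdr34 clone 3, where a single library at 69.4 CPM stood above the other 3 at 34.4 to 36.9 CPM. The remaining clones were between 0.227 and 3.51 CPM, with Co1 highest at 3.51 and G7 at 1.49. Adamts14, which trims the amino end of procollagens, followed a similar pattern over 13 clones (r = 0.81 with Adamts4): 5.01 CPM in Wdr34 clone 3, 3.0 in G7, 2.28 in Co2 and at most 0.200 in the other 10. These are also the 3 clones with the low epithelial marker sums.

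Adamts6 and Adamts7 were less abundant. Adamts6, a protease of fibrillin-rich matrix, was at 4.13 and 4.83 CPM in the non-ciliated Wdr34 and Wdr60 clones and at 2.30, 2.07, 1.01 and 3.47 CPM in AB, Co1, Co2 and Co3, so that both mutants were above all 4 controls. Among ciliated clones it was at 3.62, 1.44 and 5.98 CPM in Wdr34 clones 1 and 3 and the Wdr60 clone, and at 2.37, 3.56, 0.808 and 0.616 CPM in D8, H12, A4 and G7, which overlap. Adamts7, which cuts cartilage oligomeric matrix protein, ranged from 4.01 CPM in G7 to 18.0 CPM in the ciliated Wdr60 clone. Adamtsl4, a fibrillin-binding relative with no protease domain, was lowest in the non-ciliated Wdr60 clone at 9.43 ± 2.84 CPM, against 15.8 to 57.1 CPM in the other 12 clones.

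Among the Mmp genes, Mmp11 (stromelysin 3) varied little, from 46.7 CPM in D8 to 106 CPM in the ciliated Wdr60 clone. Mmp15, a membrane-anchored metalloprotease, varied far more. It was at 94.8 CPM in ciliated Wdr34 clone 1, 92.7 in the ciliated Wdr60 clone, 80.8 in H12 and 38.6 in A4, but at 7.96 in Wdr34 clone 3, 8.67 in D8 and 1.502 in G7. In non-ciliated cells it was at 2.96 and 5.30 CPM in the mutants and at 16.9, 5.82, 3.86 and 0.594 CPM in AB, Co1, Co2 and Co3. High and low levels therefore occurred in mutants and in controls of the ciliated state. Mmp2, a gelatinase, stayed between 1.11 and 3.94 CPM.

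Mmp12 and Mmp13 were low and confined to few clones. Mmp12, the macrophage elastase, had 87 of its 94 counts in Wdr34 clone 3 (1.14 ± 0.314 CPM), with 4 counts over the 16 ciliated control libraries and 0 in 8 of the 13 clones. Ptprc, Adgre1 and Lyz2 of the macrophage list were below 1 CPM in that clone, while Cd68 was at 0.766 CPM, the lowest of all clones, and Csf1r at 212 CPM, against 169 to 302 CPM in the other ciliated clones. Mmp13, a collagenase, was at 3.62 CPM in D8 and 2.94 CPM in Wdr34 clone 3, at 0.997 CPM in the ciliated Wdr60 clone and below 0.5 CPM in the other 10. In 7 of 18 Mmp genes with a promoter window, and in 10 of 88 members, the 250 bases before the start held both TATAAA and TGANTCA (the AP-1 letters, both strands searched), against 1.21% of all 32851 windows. The 7 were Mmp1a, Mmp1b, Mmp3, Mmp7, Mmp10, Mmp13 and Mmp20, related genes whose sequences are not independent, and Mmp13 alone among them reached 0.1 CPM in a clone. Its window (chr9:7272264-7272513, plus strand) is shown with both in capitals, at 35 and 16 bases before the start:
Mmp13: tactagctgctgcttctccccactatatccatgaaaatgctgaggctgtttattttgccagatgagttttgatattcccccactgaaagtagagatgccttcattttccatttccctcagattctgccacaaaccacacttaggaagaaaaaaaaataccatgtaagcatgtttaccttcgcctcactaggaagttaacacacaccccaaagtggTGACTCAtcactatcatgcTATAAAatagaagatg
A match of letters is a description of the window and says nothing of whether a factor is bound.

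The Timp genes ranged from abundant to nearly silent. Timp2, which both blocks metalloproteases and helps membrane-type enzymes activate Mmp2, was at 529 and 673 CPM in the non-ciliated Wdr34 and Wdr60 clones and at 569, 458, 554 and 417 CPM in AB, Co1, Co2 and Co3. Ciliated clones were at 593, 1136 and 828 CPM in Wdr34 clones 1 and 3 and the Wdr60 clone, and at 496, 640, 553 and 802 CPM in D8, H12, A4 and G7. Timp1, the secreted inhibitor that responds to growth factors, was at 40.5 and 30.8 CPM in the non-ciliated mutants and at 18.8, 34.7, 27.99 and 25.6 CPM in AB, Co1, Co2 and Co3. In the ciliated state it was at 9.44, 18.6 and 11.02 CPM in the mutants and at 15.8, 8.56, 15.5 and 11.6 CPM in D8, H12, A4 and G7. Every ciliated clone was thus below every non-ciliated clone, Wdr34 clone 3 (18.6) and AB (18.8) being nearest to each other, and 1 AB library at 29.1 CPM lay above the other 3 of that clone at 14.3 to 16.1. Timp3, the inhibitor bound to matrix, had 92 counts over 52 libraries, and Timp4 had 5.

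Serpinh1 (Hsp47), the collagen chaperone of the endoplasmic reticulum and no protease inhibitor, was either present or nearly absent. In non-ciliated cells it was at 1.20 ± 0.0900 CPM in the Wdr34 clone and 143 ± 11.8 CPM in the Wdr60 clone, and at 121, 124 and 151 CPM in AB, Co1 and Co2 but 0.496 ± 0.415 CPM in Co3. The ciliated clones were at 1.77 CPM in Wdr34 clone 1, 62.9 in clone 3 and 129 in the Wdr60 clone, and at 0.244 CPM in D8, 12.3 in H12, 80.1 in A4 and 84.0 in G7. Low clones therefore occurred among Wdr34 mutants and among controls, in both states, and no Wdr60 clone was low. In a pool of cells, fewer expressing cells and less RNA per cell cannot be told apart. Serpinh1 (chr7:99345375-99353239, minus strand) lies between Map6 (12.9 to 48.3 CPM) and Gdpd5 (11.7 to 36.5 CPM), neighbours chosen after the values were seen. Both were above 10 CPM in every clone, although Gdpd5 was lowest in D8, where Map6 was at 17.9 CPM (r = 0.05 and 0.08 with Serpinh1 over 13 clones). Its upstream window (chr7:99353240-99353489, minus strand, 63.6% G or C, 11 CpG against a median of 6) is shown because this gene was nearly absent from some clones of each state, and it held none of the 5 motifs searched:
Serpinh1: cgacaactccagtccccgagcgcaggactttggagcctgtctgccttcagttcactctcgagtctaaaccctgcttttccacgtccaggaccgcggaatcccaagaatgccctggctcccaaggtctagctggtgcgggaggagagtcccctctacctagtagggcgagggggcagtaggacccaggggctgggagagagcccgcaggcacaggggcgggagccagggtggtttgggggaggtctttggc

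The clade B serpins act mostly inside the cell. Serpinb9, an inhibitor of granzyme B, was at 82.9 and 73.6 CPM in the non-ciliated mutants and at 68.2, 121, 21.3 and 153 CPM in AB, Co1, Co2 and Co3. In ciliated cells it was at 9.98, 15.1 and 15.03 CPM in the mutants and at 50.6, 14.5, 31.2 and 6.56 CPM in D8, H12, A4 and G7. Serpinb9b, its neighbour 9.46 kb away on chromosome 13, followed it closely over the 13 clones (r = 0.99), from 171 CPM in Co3 to 0.169 CPM in G7. Reads of such related copies may be shared between them, since the handling of reads that fit several genes is not given in the sources used here, and the same holds for the Serpina3 and Serpinb6 copies. Serpinb6a, an intracellular inhibitor of serine proteases, varied less, from 64.7 CPM in G7 and 68.2 in Co2 to 186 CPM in the non-ciliated Wdr60 clone. Serpinb5 (maspin), an epithelial serpin without inhibitory activity, was at 6.27 CPM in Wdr34 clone 3, 6.56 in the non-ciliated Wdr60 clone and 3.38 in AB, and at 0.0250 CPM in Co2 and 0.0175 CPM in G7.

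The Serpina3 genes, mouse copies of the acute-phase inhibitor antichymotrypsin that sit side by side on chromosome 12, moved with Adamts4. Serpina3h was at 9.39 ± 6.42 CPM in Wdr34 clone 3 and 6.76 ± 0.117 in Co2, against at most 0.929 CPM in the other 11 (r = 0.95 with Adamts4 over 13 clones). The same single library of Wdr34 clone 3 that led for Adamts4 was highest for Serpina3h, at 18.9 CPM against 5.52 to 7.23 in the other 3. Serpina3i was at 1.95 and 1.37 CPM and Serpina3g at 2.07 and 0.966 CPM in these 2 clones, against at most 0.157 and 0.151 CPM elsewhere. In Wdr34 clone 3 that same library held 111 of the 149 Serpina3g counts, the other 3 having 10 to 15 each. It also held 68 of the 142 Serpina3i counts, the other 3 having 22 to 29 each. The sequences before Serpina3g (chr12:104235897-104236146) and Serpina3i (chr12:104262872-104263044), both on the plus strand, are shown because these neighbours were high in the same clones, with the letters TTCNNNGAA (the STAT motif, 7.02% of all windows) in capitals at 33 and 25 bases before the gene start. Of the 88 members with a window, 7 held this motif (7.95%), and Serpina3h, the most abundant of these copies, was not among them. For Serpina3i the start used for its 250-base window lies 77 bases inside the gene, so that only the 173 bases before the gene are printed, and from that start the motif is at -102:
Serpina3g: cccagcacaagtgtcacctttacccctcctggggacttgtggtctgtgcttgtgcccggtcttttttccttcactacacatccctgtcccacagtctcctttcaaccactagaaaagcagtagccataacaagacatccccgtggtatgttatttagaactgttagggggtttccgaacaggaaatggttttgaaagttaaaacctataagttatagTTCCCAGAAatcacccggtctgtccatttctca
Serpina3i: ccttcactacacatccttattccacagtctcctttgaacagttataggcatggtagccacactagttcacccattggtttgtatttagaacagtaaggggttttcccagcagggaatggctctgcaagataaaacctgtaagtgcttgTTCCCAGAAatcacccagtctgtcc

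**Figure D2:**
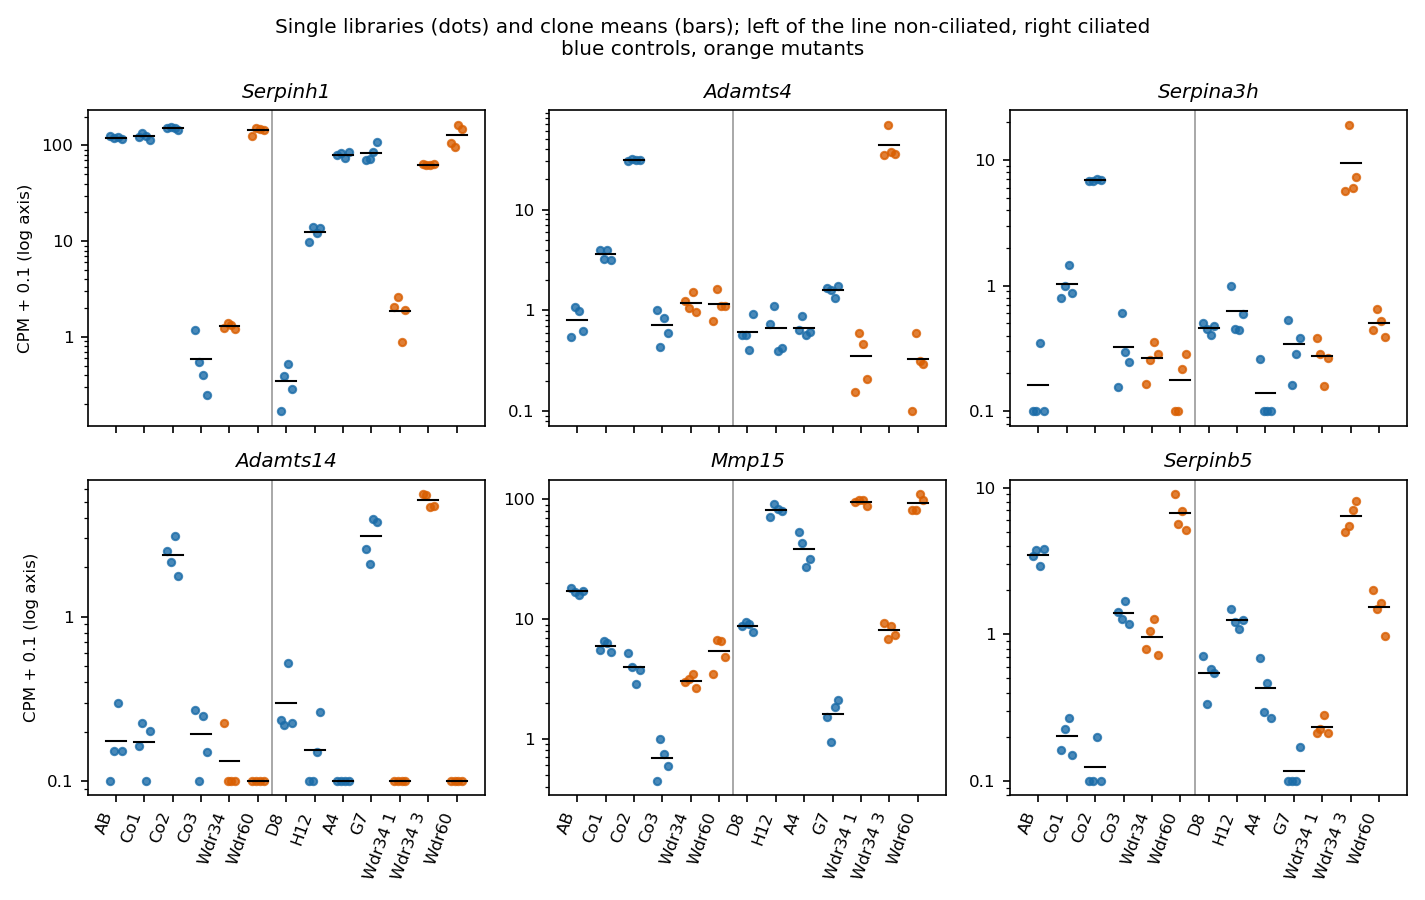
CPM plus 0.1 on a log axis for Serpinh1, Adamts4, Serpina3h, Adamts14, Mmp15 and Serpinb5 in each of 52 libraries (dots) with the clone mean (bars), non-ciliated clones left of the line, controls blue and mutants orange. Libraries of a clone sit together while clones of 1 colour spread, and Co2 and Wdr34 clone 3 stand up for Adamts4 and Serpina3h.

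The first comparison asked how mutants differ from controls in ciliated cells, with 3 clones against 4. Of 26 members tested, 2 rose and 0 fell by edgeR, against 0.644% of all 11950 genes called and 0.418% called higher (calls needed an adjusted p under 0.05, libraries being the samples, and a doubling or halving, which is 1 on the log2 scale). At an unadjusted p under 0.05, 8 members were higher and 2 lower. For fits on libraries no share of all genes at this unadjusted limit is given, here or below. Adamts4 was higher by 4.23 on the log2 scale (SE 0.88, adjusted p = 0.0066) and Serpinb5 by 2.40 (SE 0.64, adjusted p = 0.035). Both rest on Wdr34 clone 3: the other 2 mutants had 0.257 and 0.227 CPM of Adamts4, below all 4 controls at 0.517 to 1.49 CPM. Without that clone Adamts4 turned to -1.70 (adjusted p = 0.027) and Serpinb5 was at 0.64 and not called. Adamts4 did not pass the filter on low counts when any control clone was left out, and neither did Serpinb5 without H12, while without D8 or A4 Serpinb5 was at 2.35 and 2.24 and not called (adjusted p = 0.11 and 0.10). Serpinb5 was also not called with the replicate block (2.41, adjusted p = 0.062) or with any 1 replicate left out, and Adamts4 was not called without replicate 3 or 4 (4.17 and 4.34) and not tested without replicate 2. For 0 of the 26 members did the clone means of mutants and controls not overlap, against 1.95% of all genes. With the libraries of each clone summed, 0 of 34 members were called. An unadjusted p under 0.05 was found for 2 (Adamts4 and Serpina3h), against 1.12% of all genes. With voomLmFit and the clone as a block, 0 were called and 1 had a p under 0.05, while DESeq2 called 3.

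Of the inhibitors, Timp2 was higher by 0.45 (SE 0.13, adjusted p = 0.048), under the fold limit, and Timp1 was not past the test. Timp2 was at 0.18 without Wdr34 clone 3 (adjusted p = 0.39). It also did not pass without D8 (0.36), A4 (0.39) or the Wdr60 clone (0.46), with adjusted p of 0.20, 0.15 and 0.07. Its adjusted p stayed under 0.05 without G7 (0.59), H12 (0.47) or Wdr34 clone 1 (0.66), and without Wdr34 clone 3, G7 and Co2 together (0.32). Serpinb9b had a log2 fold change of -2.04 (SE 0.63, adjusted p = 0.071), not called with all clones but called without G7 (-2.44), without H12 (-2.34) and without Wdr34 clone 3, G7 and Co2 together (-2.69), an alternative added after the data were seen. In the last of these, Serpinb9 (-1.37), Serpinb8 (-3.02) and Adamts6 (1.07) were also called, with 2.2% of all genes, and Adamts4 was not tested. Over the 26 members the median log2 fold change was 0.23 (16 positive, 10 negative), against -0.01 over all genes.

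In non-ciliated cells, with 2 mutant clones against 4 controls, 27 members were tested, 1 rose and 3 fell, against 3.06% of 12012 genes called, 0.491% higher and 2.57% lower. Adamts6 was higher by 1.01 (SE 0.24, adjusted p = 0.0059). It was the single member whose clone means did not overlap, a pattern that 13% of all genes showed. Adamts4 fell by 3.03 (SE 0.94, adjusted p = 0.030), Serpina3h fell by 3.96 (SE 1.13, adjusted p = 0.020) and Serpinf1, an anti-angiogenic serpin without inhibitory activity, fell by 1.58 (SE 0.54, adjusted p = 0.048). Serpina3h and Serpinf1 passed the filter through the controls alone (0 and 1 of 8 mutant libraries reached its level), so that only a fall could be found. For these 3 the controls were uneven: Serpinf1 was at 0.158 and 0.488 CPM in the mutants, 0.408 and 0.405 in AB and Co1, and 1.83 and 1.31 in Co2 and Co3. Without Co2, 0 of the members were called, Adamts4 being at -0.58 and Adamts6 at 0.76, while Serpina3h and Serpinf1 did not pass the filter. Without Co1, Adamts6 was at 0.98 and Serpina3h did not pass the filter, and without Co3 Serpinf1 did not pass it. With the Wdr34 or the Wdr60 clone left out, Adamts4 (-3.05 and -3.01) and Serpina3h (-4.59 and -3.52) kept a change of similar size but were not called, nor were Adamts6 without the Wdr60 clone (0.90) and Serpinf1 without the Wdr34 clone (-1.0). With the replicate block Adamts4 (-3.04, adjusted p = 0.051) and Serpinf1 (-1.61, adjusted p = 0.073) were not called. Both also lost their call with any 1 replicate left out, Serpina3h without replicate 2, 3 or 4, and Adamts6 without replicate 1, 2 or 3. With clones summed 0 were called and 0 of 34 had an unadjusted p under 0.05, against 4.34% of all genes. VoomLmFit called 0 with 4 at p under 0.05. Adamts10 (-0.41), Serpinb6a (0.52) and Timp2 (0.27) passed the adjusted p but not the fold limit. The median log2 fold change of the 27 members was -0.07, and 0.00 over all genes.

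**Figure D3:**
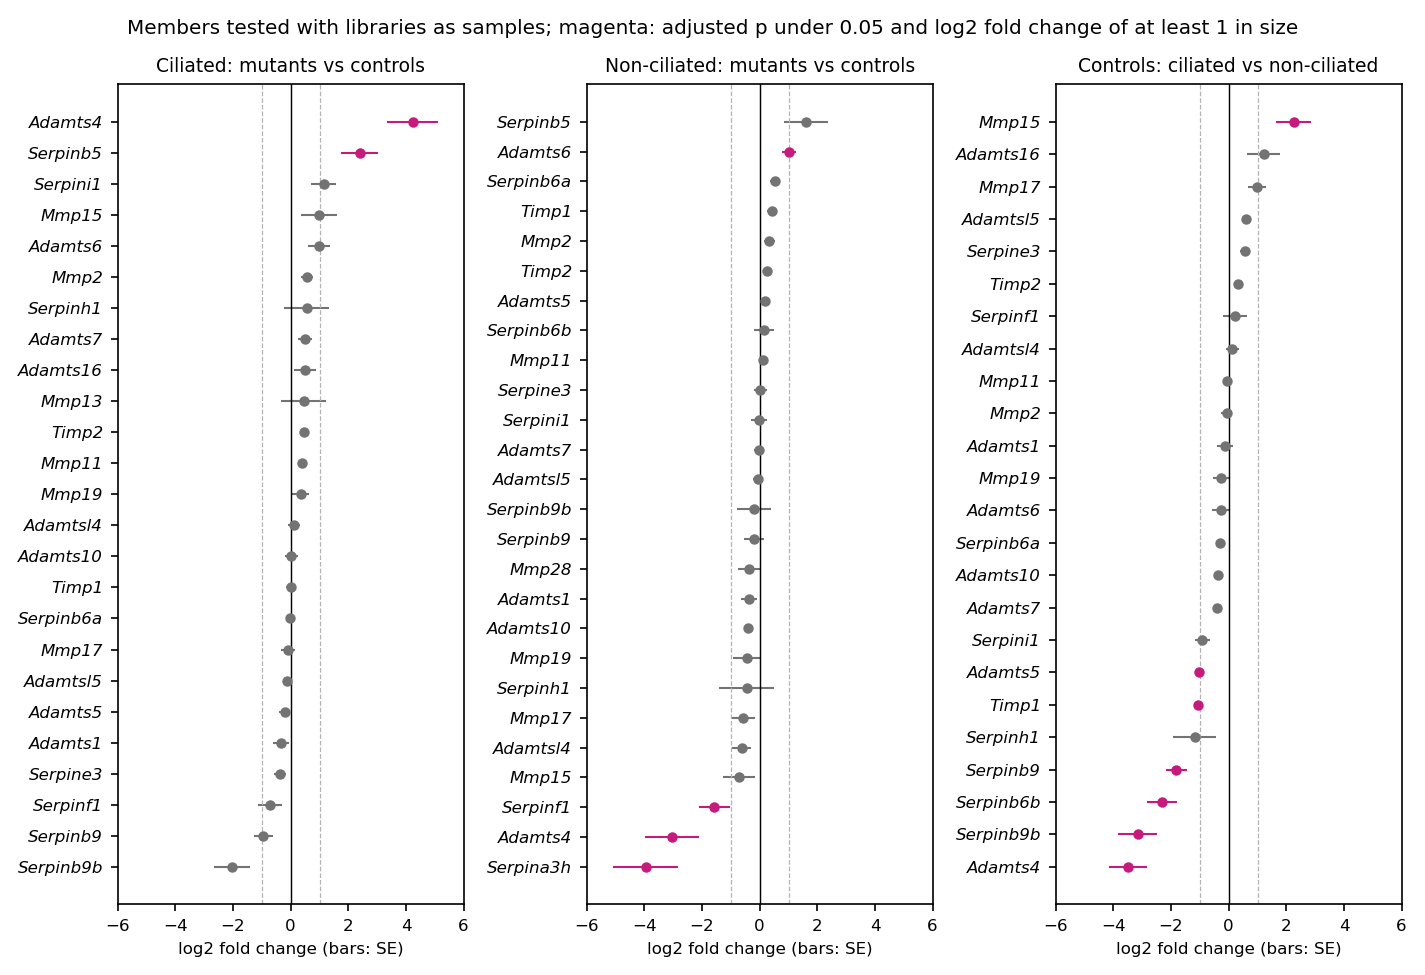
Log2 fold changes (points) with SE (bars) of the members tested that are reported here, for ciliated mutants against controls, non-ciliated mutants against controls, and ciliated against non-ciliated controls, with called members in magenta and dashed lines at -1 and 1. In the 3 panels 2, 4 and 7 members are called, and Adamts4 lies far right in the first panel and far left in the other 2.

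Single mutant clones were then set against the 4 controls of their state. These comparisons share their controls, and with 1 clone a genotype and a clone cannot be told apart. In ciliated Wdr34 clone 1, edgeR called 0 of 30 members, against 0.679% of genes, 0.218% higher and 0.46% lower. An unadjusted p under 0.05 was found for 12 members, 1 higher and 11 lower. Without the share of all genes at that limit, these counts cannot be read as particular to the members. DESeq2 called 4 (Adamts14, Serpinb8, Serpinb9b and Serpinh1), clones summed 0 with 0 at p under 0.05, and voomLmFit 0 with 1. Its Serpinh1 log2 fold change of -4.64 (SE 1.54) had an adjusted p of 0.13, the controls spanning 0.244 to 84.0 CPM, and it was called without D8 (-5.05). Without G7, Serpinb5 (-2.27), Serpinb8 (-6.22), Serpinb9 (-1.71) and Serpinb9b (-3.71) were called, with 2.26% of all genes, and without H12 Mmp2 (1.05) was.

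In ciliated Wdr34 clone 3, 8 of 33 members tested rose and 0 fell, against 3.64% of genes called higher, 2.16% lower and 5.8% in either direction. They were proteases of proteoglycan and elastin, Adamts4 (5.78, SE 0.33, adjusted p = 1.5e-10) and Mmp12 (5.76, SE 0.55, adjusted p = 2.1e-07), the acute-phase copies Serpina3h (4.96, SE 0.53) and Serpina3i (4.49, SE 0.57), Serpinb5 (3.65, SE 0.62), and Serpini1 (2.38, SE 0.31), a neuronal inhibitor of tissue plasminogen activator. The other 2, Mmp28 (1.80, SE 0.47) and Mmp19 (1.19, SE 0.32), had smaller changes. Serpini1 was at 4.58 CPM in this clone and between 0.434 and 1.25 CPM in D8, H12, A4 and G7. All 8 kept their call with each control clone left out and with the replicate block, and without G7 the count was 16, with 13.1% of all genes called. Of the 8, Mmp12, Serpina3h and Serpina3i passed the filter on low counts through this clone alone (0, 1 and 0 of 16 control libraries reached its level), so that their direction was fixed, and the other 5 also passed on the controls alone. Mmp28 lost its call without replicate 1, 2 or 3 (1.71 to 1.80) and Mmp19 without replicate 2 or 3 (1.22 and 1.06), while the other 6 kept theirs. VoomLmFit called 5 (Adamts4, Adamts14, Mmp12, Serpinb5 and Serpini1), and clones summed called 0 with 11 at p under 0.05. Timp2 was higher by 0.86 (SE 0.13, adjusted p = 1.1e-04), under the fold limit, and by 1.01 without G7. The marker values of this clone given above, Dcn among them, move with these genes, and their part was not tested.

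In the ciliated Wdr60 clone, 2 of 30 members rose, against 1.93% of genes called, 0.642% higher and 1.29% lower. They were Adamts6, higher by 1.68 (SE 0.48, adjusted p = 0.039), and Adamts7, higher by 1.19 (SE 0.27, adjusted p = 0.011). Adamts6 was not called without D8 (1.83, adjusted p = 0.052) or A4 (1.44, adjusted p = 0.094), and Adamts7 without G7 was at 0.97, under the fold limit. Neither was called by voomLmFit or with any 1 replicate left out, and Adamts6 was not called with the replicate block (adjusted p = 0.078). In the non-ciliated Wdr60 clone, Adamts6 rose by 1.12 (SE 0.32, adjusted p = 0.025) and Adamtsl4 fell by 1.72 (SE 0.40, adjusted p = 0.0082), 2 of 34 members against 3.41% of genes called, 0.986% higher and 2.43% lower. Adamtsl4 kept its call without any 1 control (-1.94 to -1.26), whereas Adamts6 was not called without Co1 (1.09, adjusted p = 0.071) or Co2 (0.88, under the fold limit). By voomLmFit neither was called, nor was Adamts6 with the replicate block (adjusted p = 0.051) or without replicate 2, 3 or 4, nor Adamtsl4 without replicate 2. The effects of Adamts6 in both Wdr60 clones were in the same direction, each against its own controls. This was not particular to Wdr60. Adamts6 was also higher, without a call, in the non-ciliated Wdr34 clone (0.90) and in ciliated Wdr34 clone 1 (0.95), and lower in Wdr34 clone 3 (-0.37). In the non-ciliated Wdr34 clone, Serpinh1 fell by 6.35 (SE 1.60, adjusted p = 0.015) and Serpinf1 fell by 2.56 (SE 0.79, adjusted p = 0.041), 2 of 35 members against 2.24% of genes called, 0.275% higher and 1.97% lower. Serpinf1 passed the filter through the controls alone here too. Serpinh1 kept its call with each control left out (-6.78 to -6.07), but the control Co3 was itself at 0.496 CPM, below the mutant. Serpinf1 was not called without Co2 (-2.08) or Co3 (-2.41), with the replicate block (adjusted p = 0.062) or with any 1 replicate left out, and Serpinh1 was not called without replicate 2, 3 or 4. By voomLmFit neither was called. With clones summed, 0 members were called in each of these 3 clones, and 0 members in the Wdr60 clones and 1 (Timp3) in the non-ciliated Wdr34 clone had a p under 0.05.

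The controls of both states, 4 clones each, gave the comparison of ciliated with non-ciliated cells. Of 25 members tested 1 rose and 6 fell, against 6.29% of 11856 genes higher, 3.99% lower and 10.3% in either direction. Those lower in ciliated controls were Adamts4 (-3.48, SE 0.66), Serpinb9b (-3.16, SE 0.67), Serpinb6b (-2.30, SE 0.52), Serpinb9 (-1.82, SE 0.37), Timp1 (-1.06, SE 0.14, adjusted p = 1.5e-07) and Adamts5 (-1.02, SE 0.15, adjusted p = 3.7e-07). Mmp15 was higher by 2.25 (SE 0.62, adjusted p = 0.0022). Mmp15 and Serpinb9b passed the filter through the state in which they were higher, the other state having 14 and 12 libraries at its level where 15 were needed. In clone means no ciliated control overlapped the non-ciliated ones for Adamts5 and Timp1, but for Timp1 this rested on the AB library at 29.1 CPM, the other 3 of AB lying among the libraries of D8 and A4. Without replicate 1, which removes that library, Timp1 was at -0.96 and not called. Serpine3, a little-studied serpin, lay above without overlap at 1.20 to 1.58 against 0.795 to 1.03 CPM. Such separation was found in 3 of 25 members and in 23% of all genes. Adamts5 (-1.05, adjusted p = 0.039) and Timp1 (-1.07, adjusted p = 0.035) were also the 2 members called with clones summed, where 660 of 13119 genes were called. VoomLmFit called 4, Adamts5, Serpinb6b, Serpinb9 and Serpinb9b.

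The state comparison was then repeated without Co2 and G7, the control clones of low Epcam and low summed epithelial level, an alternative added after the data were seen. Without Co2 and G7, 10 of 26 members and 12.4% of all genes were called, and Adamts4 was at -1.54, with Timp1 at -1.01, Adamts5 at -1.07, Serpinb9 at -1.85, Serpinb9b at -3.17 and Mmp15 at 2.44. Without Co2 alone Adamts4 was at -1.04. Mmp15 was not called without H12 (1.27). Adamts5 and Timp1 lay close to the fold limit: Adamts5 was not called without Co1, Co3, H12 or A4 (-0.98 to -0.83) and Timp1 not without Co1 or H12 (-0.91 and -0.90), with adjusted p of at most 1.7e-05. The median log2 fold change was -0.27 over the 25 members and 0.02 over all genes. The ciliated mutants were not in this comparison, and their levels of Adamts5 and Timp1, given above, were below those of both non-ciliated mutants.

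**Figure D4:**
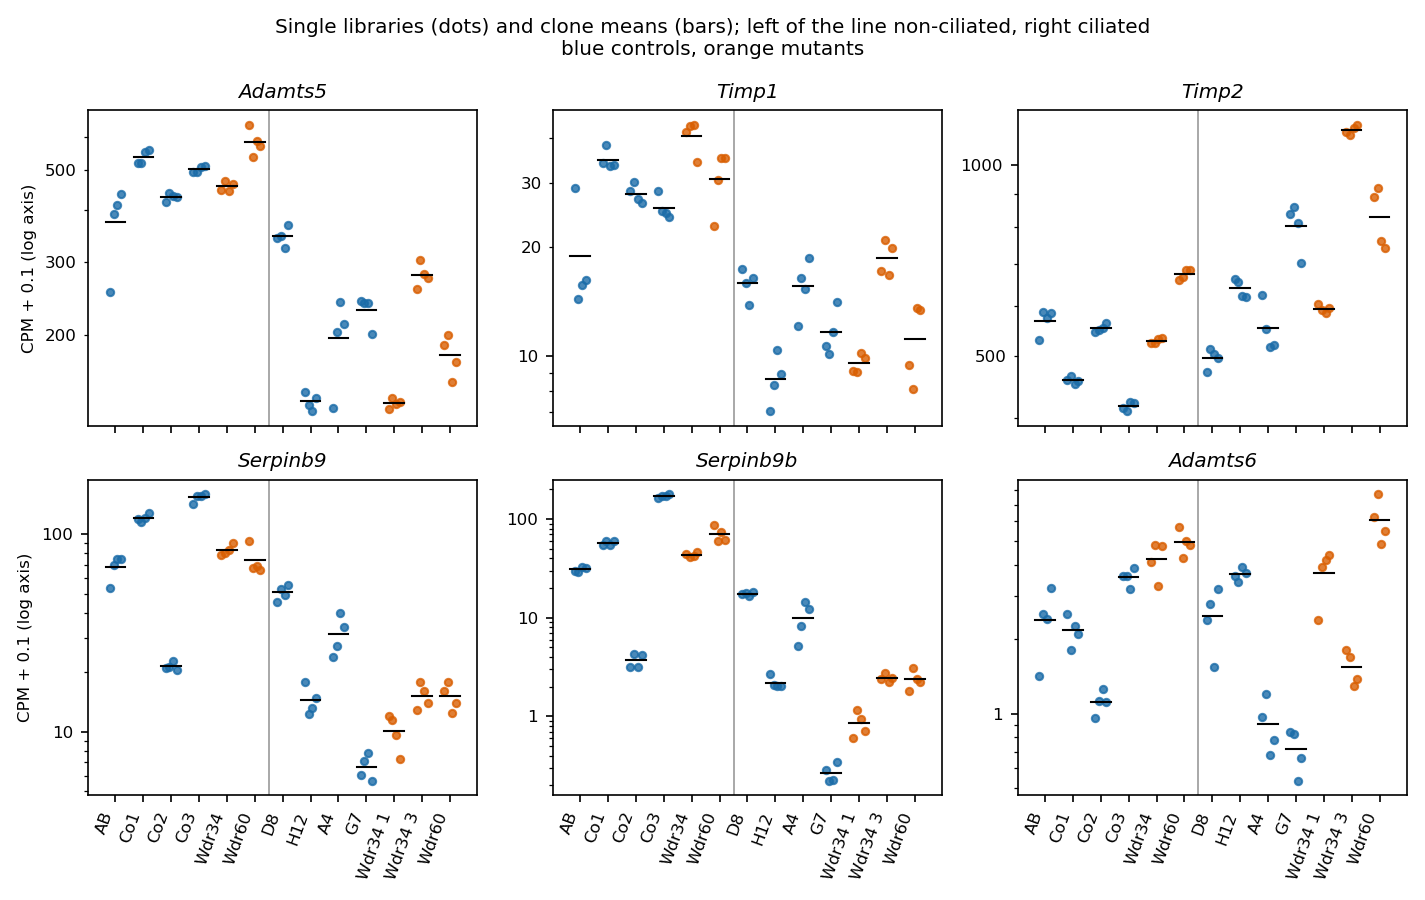
CPM plus 0.1 on a log axis for Adamts5, Timp1, Timp2, Serpinb9, Serpinb9b and Adamts6 in each of 52 libraries (dots) with the clone mean (bars), non-ciliated clones left of the line, controls blue and mutants orange. By clone mean, Adamts5 and Timp1 are lower in every ciliated clone, although single AB libraries reach the ciliated range, Serpinb9 and Serpinb9b track each other clone by clone, and Adamts6 is above the non-ciliated controls in both non-ciliated mutants.

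Whether the mutant effect differed between states was tested as an interaction over all 52 libraries. Of 32 members tested, 4 were called, all with a higher effect in ciliated cells, against 1.12% of 12544 genes in that direction, 0.0638% in the other and 1.19% in either. These were Serpina3h (7.44, SE 1.39, adjusted p = 0.0022), Adamts4 (7.26, SE 1.41, adjusted p = 0.0027), Serpina3i (6.72, SE 1.47, adjusted p = 0.0089) and Adamts16 (3.54, SE 0.98, adjusted p = 0.045), a protease of the same family. Adamts16 was at 1.98, 1.59 and 4.28 CPM in the ciliated mutants, 4.18, 1.95, 0.727 and 0.524 in D8, H12, A4 and G7, 0.0527 and 0.123 in the non-ciliated mutants, and 2.61 in Co2 against at most 0.307 in the other non-ciliated controls. Without Wdr34 clone 3, 0 members were called: Adamts4 was at 1.33 and Serpina3h at 3.94 (adjusted p = 0.64 and 0.088), Serpina3i did not pass the filter, and Adamts16 was at 3.79 (adjusted p = 0.053), no smaller than with all clones. Without Co2, Adamts4 (4.82) and Serpina3h (5.18) were called and Adamts16 was at 1.53. Adamts16 also lost its call, at 2.99 to 4.11, without A4, the ciliated Wdr60 clone or either non-ciliated mutant, as did Serpina3i (5.91, adjusted p = 0.057) without the non-ciliated Wdr60 clone. With the replicate block Adamts16 was at 3.54 (adjusted p = 0.062) and the other 3 were called. With 1 replicate left out, Adamts16 lost its call each time (3.10 to 4.0), Serpina3i without replicate 2, 3 or 4 (6.55 to 7.24), Adamts4 without replicate 2 or 3 (7.10 and 7.26) and Serpina3h without replicate 2 (6.56). Without Co2, G7 and Wdr34 clone 3 together 0 were called and Adamts4 was at -0.61 (adjusted p = 0.65). With clones summed 0 were called, and 4 of 43 had a p under 0.05, against 0.972% of all genes.

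The wider protease network was read from the same fits in a list of 54 genes that are not members, covering the plasminogen system, membrane metalloproteases, their activators, serine and cysteine proteases with their inhibitors, and matrix substrates. In ciliated mutants 1 of 35 tested rose and 1 fell, against 0.644% of all genes called. The substrate Eln (elastin) rose by 2.90 (SE 0.63, adjusted p = 0.0094), at 1.88, 6.59 and 0.121 CPM in the mutants against 0.0788 to 0.815 CPM in the controls, which overlap. Without Wdr34 clone 3 it was at 1.36 and not called (adjusted p = 0.21), and without D8 or H12 it did not pass the filter. The membrane protease Adam8 fell by 1.52 (SE 0.37, adjusted p = 0.021), at 0.950, 0.603 and 1.45 CPM against 5.06, 2.30, 3.37 and 0.729 CPM in D8, H12, A4 and G7, and was not called without Wdr34 clone 1, Wdr34 clone 3, D8 or A4 (-1.48 to -1.09). Adam8 had passed the filter through the controls alone, with 14 of 16 libraries at its level. The mutants had 8 of 12 where 12 were needed, which favours a fall without fixing the direction. With clones summed and by voomLmFit 0 network genes were called in ciliated mutants, and by DESeq2 3 were called. By each of the first 2 fits 1 gene had a p under 0.05, with clones summed 1 of 40 against 1.12% of all genes. In non-ciliated mutants 0 of 35 were called by edgeR, against 3.06% of all genes, with 10 at an unadjusted p under 0.05, and 0 by DESeq2. Between states in controls 4 of 34 were higher in ciliated cells (Lrp1, Mep1a, Prss8 and Spint2) and 4 lower (Plau, Adam8, Adam12 and Fn1), against 6.29% and 3.99% of all genes. By voomLmFit 6 of the list were called. With clones summed 0 of 40 were called and 10 had a p under 0.05, against 32.1% of all genes with such a p. The plasminogen system thus had 1 gene in each direction. Mep1a, Adam8 and Adam12 passed the filter through the state in which they were higher, which favours that direction without fixing it. The other state had 7, 14 and 12 libraries at its level where 15 were needed. In the interaction 0 of 39 were called by edgeR, against 1.19% of all genes, with 7 at an unadjusted p under 0.05, and 0 by DESeq2.

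Network genes called in single clones are named here after their values were seen. In Wdr34 clone 3, 3 of 39 rose and 1 fell, against 3.64% of all genes called higher and 2.16% lower. Eln rose by 4.09 (SE 0.56), and Tfpi, an inhibitor of coagulation, rose by 4.89 (SE 0.59) and Lox, which crosslinks collagen and elastin, by 6.99 (SE 0.58), both having passed the filter through this clone alone. Adam8 fell by 2.25 (SE 0.67), was not called by voomLmFit, without D8 or without replicate 1, 3 or 4, and had passed the filter through the controls alone. In the ciliated Wdr60 clone 1 of 38 was called, against 1.93% of all genes. This was the meprin subunit Mep1a, which rose by 1.33 (SE 0.36) there and by 1.91 (SE 0.44) in the non-ciliated Wdr60 clone. The first of these calls was lost with the replicate block, with any 1 replicate left out and without D8 or A4, the second without replicate 2 or 3, and both by voomLmFit. In the non-ciliated Wdr60 clone Plat, the tissue plasminogen activator, fell by 1.31 (SE 0.16) and the matrix protein Thbs1 by 1.84 (SE 0.36). With Mep1a, 3 of 36 were called there, against 3.41% of all genes, 0.986% higher and 2.43% lower. Tfpi rose by 1.89 (SE 0.48) in the non-ciliated Wdr34 clone, the 1 gene called of 37, against 2.24% of all genes. It had passed the filter through that clone alone, and was not called by voomLmFit or without replicate 1, 2 or 3. In Wdr34 clone 1, 0 of 38 were called by edgeR, against 0.679% of all genes, with 7 at an unadjusted p under 0.05, and 2 by DESeq2. With clones summed 0 network genes were called in each of these 5 clones, and 0 to 4 had a p under 0.05.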

How the data were processed

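RNA of 52 libraries (13 clones, 4 technical replicate libraries each) was sequenced as paired ends from poly(A)-primed cDNA. The authors deposited whole-number read counts per gene symbol, made with featureCounts in R 3.4.4 on GRCm38 (mm10) according to the submitters' notes and methods; strand use and the handling of reads that fit several genes are not given in the sources used here, so related gene copies may share counts. The authors' own tests used DESeq2 1.18.1. No row lacked a gene name.

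Here counts were tested in R 4.3.3 with edgeR 4.0.16 (filterByExpr, TMM within each comparison, 2-sided quasi-likelihood F test, Benjamini-Hochberg adjustment over all genes tested), with the library as the sample. The SE is the log2 fold change divided by the square root of F. Calls needed an adjusted p under 0.05 together with a change of 1 or more, up or down, on the log2 scale. Alternatives were DESeq2 1.42.0, its size factors in edgeR, no filter on low counts, libraries summed by clone, limma 3.58.1 (voomLmFit, blocked by clone), blocking by replicate number, and leaving out each replicate or clone. Leaving out the clones of low summed epithelial level together was added after seeing the data. The tests were tried on simulated counts, drawn independently for each library with a common dispersion and no difference between clones. The simulation therefore cannot check the error rate of fits that count technical replicate libraries as independent samples. Where a count is 0, a floor of 3 counts per library (3 of its total) limits the level, and this covers counting error only.

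The members and gene lists were chosen with earlier results of these data known. Genes named were members called in a mutant comparison (up to 12 per direction, or 6 for a single clone) or between control states (up to 8), the 12 highest by mean CPM, the 10 with the largest ratio between clones among those reaching 5 CPM, the 4 Timp genes, and network genes called in the comparison of all mutants of a state. Adamts16, Mmp2, Mmp13, Mmp19, Mmp28, Serpina3g, Serpinb8, Serpine3, Map6 and Gdpd5 were singled out after their values were seen. Of the members, 1 is not reported here, though it stays in the counts and sums over members. Promoter windows are the 250 bases before the gene start in RefSeq (GRCm38.p6), found for 88 of 114 members. Motifs searched on both strands were TATAAA (the TATA box), TGANTCA (AP-1), GAANNTTC (heat shock), TTCNNNGAA (STAT) and CACGTG (E-box), with overlaps between them allowed.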

Additional observations from a re-analysis of the deposited data

Results flagged for a closer look

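In 7 of 41 groups of 4 control clones examined, the highest clone lay far from the other 3, past a limit that about 1 in 20 groups would pass by chance. That rate is the nominal one for a single group, and the groups of different genes share their clones and are not independent. Adamts14 was at 3.0 CPM in G7 and 2.28 CPM in Co2. Adamts4 was at 1.49 CPM in G7 and 30.8 CPM in Co2. Mmp11 was at 96.2 CPM, Serpina3h at 6.76 CPM and Serpina3i at 1.37 CPM in Co2. All 7 were in Co2 or G7, the control clones with low Epcam and high Pax2 and Pax8, and the part of these markers was not tested.

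The mutant effect differed between states for 4 members by the interaction in edgeR: Adamts4 (7.26), Serpina3h (7.44), Serpina3i (6.72) and Adamts16 (3.54), on the log2 scale, with 0 of them called when Wdr34 clone 3 was left out. Without that clone Adamts4 was at 1.33, Serpina3h at 3.94 and Adamts16 at 3.79 (adjusted p = 0.64, 0.088 and 0.053), and Serpina3i did not pass the filter on low counts.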

How the results depend on the processing

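The number of members called moved with the fit. In ciliated mutants it was 2, with 7 without a filter on low counts, 0 with clones summed or voomLmFit, 1 with the replicate block, 0 to 1 without a replicate, 0 to 4 without a clone, and 4 without Co2, G7 and Wdr34 clone 3. In non-ciliated mutants it was 4, with 7 by adjusted p alone or without a filter, 0 with clones summed or voomLmFit, 2 with the replicate block, 0 to 2 without a replicate, and 0 to 5 without a clone. In ciliated Wdr34 clone 1 it was 0, with 4 by DESeq2 and 0 to 4 without a clone. In Wdr34 clone 3 it was 8, with 18 without a filter, 0 with clones summed, 5 by voomLmFit, 6 to 8 without a replicate and 8 to 16 without a clone. In the ciliated Wdr60 clone it was 2, with 4 by DESeq2, 0 with clones summed or voomLmFit, 1 with the replicate block, 0 without any 1 replicate, and 1 to 5 without a clone. In the non-ciliated Wdr34 clone it was 2, with 4 by adjusted p alone, 1 without a filter, 6 by DESeq2, 0 with clones summed or voomLmFit, 1 with the replicate block, 0 to 1 without a replicate, and 1 to 5 without a clone. In the non-ciliated Wdr60 clone it was 2, with 7 without a filter, 6 by DESeq2, 0 with clones summed or voomLmFit, 1 with the replicate block, 0 to 2 without a replicate, and 1 to 4 without a clone. Between states it was 7, with 13 by adjusted p alone, 27 without a filter, 2 with clones summed, 4 by voomLmFit, 7 to 9 without a replicate and 5 to 11 without a clone. In the interaction it was 4, with 0 with clones summed, voomLmFit or without Co2, G7 and Wdr34 clone 3, 0 to 4 without a replicate, and 0 to 8 without a clone. Of 840 alternative values for 48 gene results, 646 kept direction and side of the threshold, 154 lost the call, 38 gained it and 2 turned: Adamts4 in ciliated mutants without Wdr34 clone 3 (-1.70, against values up to 4.80 without another mutant clone) and Adamts4 in the interaction without Co2, G7 and Wdr34 clone 3 (-0.61). In both cases the clone with the highest Adamts4 was left out. For the other changes the cause was not tested.

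The replicate numbers were not treated as pairs: over 144 pairs of libraries with the same number the median correlation of deviations was 0.028, 56 pairs were above 0.1, and 17 of 52 libraries correlated best with their own number. Each mutant clone stands for 1 clone, and members below about 1 CPM rest on few counts.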
